A study of Drosophila melanogaster with 12 samples.

Results

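The antioxidant defence genes followed here are 9 genes: Sod1, Sod2, Sod3, Cat, Keap1, cnc, PHGPx, Trxr1 and Trx-2. They were taken by name from the 13726 genes with values in each library, with earlier results of these data known. All 9 passed the filter on low counts in every comparison. Superoxide dismutases turn superoxide into hydrogen peroxide, in the cytosol (Sod1), the mitochondrial matrix (Sod2) or outside the cell (Sod3). Catalase, the product of Cat, breaks hydrogen peroxide down to water and oxygen in peroxisomes, and PHGPx encodes a peroxidase of the glutathione peroxidase family that in flies draws its electrons from thioredoxin. Trx-2 is a thioredoxin and Trxr1 the reductase that recharges it, a central enzyme in flies because they lack a glutathione reductase. The cnc gene encodes CncC, the fly counterpart of the mammalian factor Nrf2, which switches on detoxifying and antioxidant genes, and Keap1 encodes the adaptor that holds CncC in check by sending it for degradation.

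RNA-seq libraries came from sorted support cells of the germline stem cell niche of Drosophila ovaries, with 2 libraries in each of 6 groups. TFCs-CpCs (terminal filament cells and cap cells, at the tip of the germarium) were sorted by their high GFP signal from 4w-old and 1w-old females carrying bab1-Gal4 and UASp-tau::mGFP6, a driver that is also weakly active in escort cells. ECs (escort cells, which wrap the dividing germline cysts) were sorted as GFP-positive cells from 4w-old and 1w-old females carrying lexAop-mCD8::GFP and ptc-LexA. The remaining groups were ECs from Smu1 RNAi females (LexAop-mCD8::GFP, ptc-LexA, tub-Gal80ts, ptc-Gal4 and UAS-Smu1 RNAi, from 1 RNAi line) and from control females with the same elements but no RNAi construct. All 12 libraries thus came from GFP-expressing cells of many pooled ovaries. The labels list growth temperatures of 18, 25 and 29 °C without assigning them. The study's supplementary material places growth of the RNAi experiment's flies at 18 °C and, after eclosion, their adult life at 29 °C for 2 weeks. The study describes the 2 libraries of a group as biological replicates and, for ageing, the females of each replicate as divided from a shared batch.

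The counts per library summed to between 12078227 and 52487930, with every TFCs-CpCs library at 37580263 or more and every EC library at 16888122 or fewer. In the RNAi experiment, Smu1, a splicing factor and the targeted gene, had 4.17 and 5.51 cRPKM in Smu1 RNAi ECs, against 26.4 and 23.6 cRPKM in control ECs. The cRPKM (corrected RPKM) scales a gene's reads to the library's mapped reads and to the length that reads can map to. The sorted cells carried their defining markers only in part. The 8 markers of terminal filament and cap cells summed to 530 and 1393 cRPKM in 4w TFCs-CpCs and 308 and 361 cRPKM in 1w TFCs-CpCs. In ECs they summed to 151 to 197 cRPKM. Of these markers, en had 71.4 and 298 cRPKM in 4w TFCs-CpCs, 14.0 and 20.3 cRPKM in 1w TFCs-CpCs and at most 3.19 cRPKM in ECs. LamC (164 to 447 cRPKM in TFCs-CpCs, against 9.57 to 40.8 in ECs), inv (16.45 to 166, against 0 to 3.69) and dpp (25.5 to 94.8, against 0.28 to 5.64) were separate too. The ranges of bab1 and bab2 overlapped between the cell groups. In contrast, upd1 was at or under 0.62 cRPKM in TFCs-CpCs, and hh had 5.35 and 7.65 cRPKM in 1w TFCs-CpCs, against 118 and 91.5 cRPKM in 1w ECs. The 7 EC markers did not separate the cell groups as a list. Their summed level was 510 and 2038 cRPKM in 4w TFCs-CpCs and 391 and 384 cRPKM in 1w TFCs-CpCs, against 788 to 1631 cRPKM in ECs, so that the second 4w TFCs-CpCs replicate was above every EC library. Of these markers, ptc had 6.55 to 10.9 cRPKM in TFCs-CpCs, against 42.4 to 120 cRPKM in ECs. The ranges of fax were separate too (37.5 to 201 cRPKM in TFCs-CpCs, against 452 to 782 cRPKM in ECs). Con was at or under 2.55 cRPKM in TFCs-CpCs and above that in every EC library. Wnt4, however, had 307 and 1390 cRPKM in 4w TFCs-CpCs, against 371 and 257 cRPKM in 4w ECs. Wnt6 had 117 and 474 cRPKM in 4w TFCs-CpCs, against 12.9 and 11.1 cRPKM in 4w ECs. The ranges of hth and zfh1 overlapped between the cell groups. Markers of other tissues also moved. The summed level of 15 muscle markers was 1866 and 2054 cRPKM in 4w TFCs-CpCs, against 55984 and 53205 cRPKM in 1w TFCs-CpCs, where it made up 8.68% and 8.33% of all cRPKM. The summed level of 15 late follicle cell markers (eggshell and yolk protein genes) was 154848 and 36824 cRPKM in 4w TFCs-CpCs, against 14797 and 4379 cRPKM in 1w TFCs-CpCs. In these bulk libraries, fewer cells of a type and less RNA per cell cannot be told apart.

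Among the antioxidant defence genes, 3 of 9 changed with age in TFCs-CpCs: Sod3 was up-regulated, and Cat and Trx-2 were down-regulated. Calls required a difference of 2-fold or more together with an edgeR quasi-likelihood p under 0.1 after Benjamini-Hochberg adjustment over all genes tested. By that rule 479 of 9249 genes (5.18%) were called in 4w over 1w TFCs-CpCs. In ECs none of the 9 was called with age, where 11 of 10675 genes (0.103%) were called. With the replicate number as a block, taken to pair the EC ages, 18 genes were called, again none of the 9. Without the block, 570 of these 10675 genes, Trx-2 among the 9 alone, had an unadjusted edgeR p under 0.05. In Smu1 RNAi over control ECs none of the 9 was called either, where 110 of 9933 genes (1.11%) were called; there Sod3 alone of the 9 was among the 1088 genes with an unadjusted p under 0.05. The median log2 fold change of the 9 genes was -0.14 in TFCs-CpCs with age (0.04 over all genes tested), 0.16 in ECs with age (-0.03 over all genes tested) and 0.06 with Smu1 RNAi (-0.002 over all genes tested). The 3 calls in TFCs-CpCs held when either 4w library was left out and were all lost when either 1w library was left out. The edgeR adjusted p-values were then 0.36 (Sod3), 0.25 (Cat) and 0.268 (Trx-2) without the first 1w replicate, and 0.214 (Sod3), 0.155 (Cat) and 0.168 (Trx-2) without the second.

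**Figure D1:**
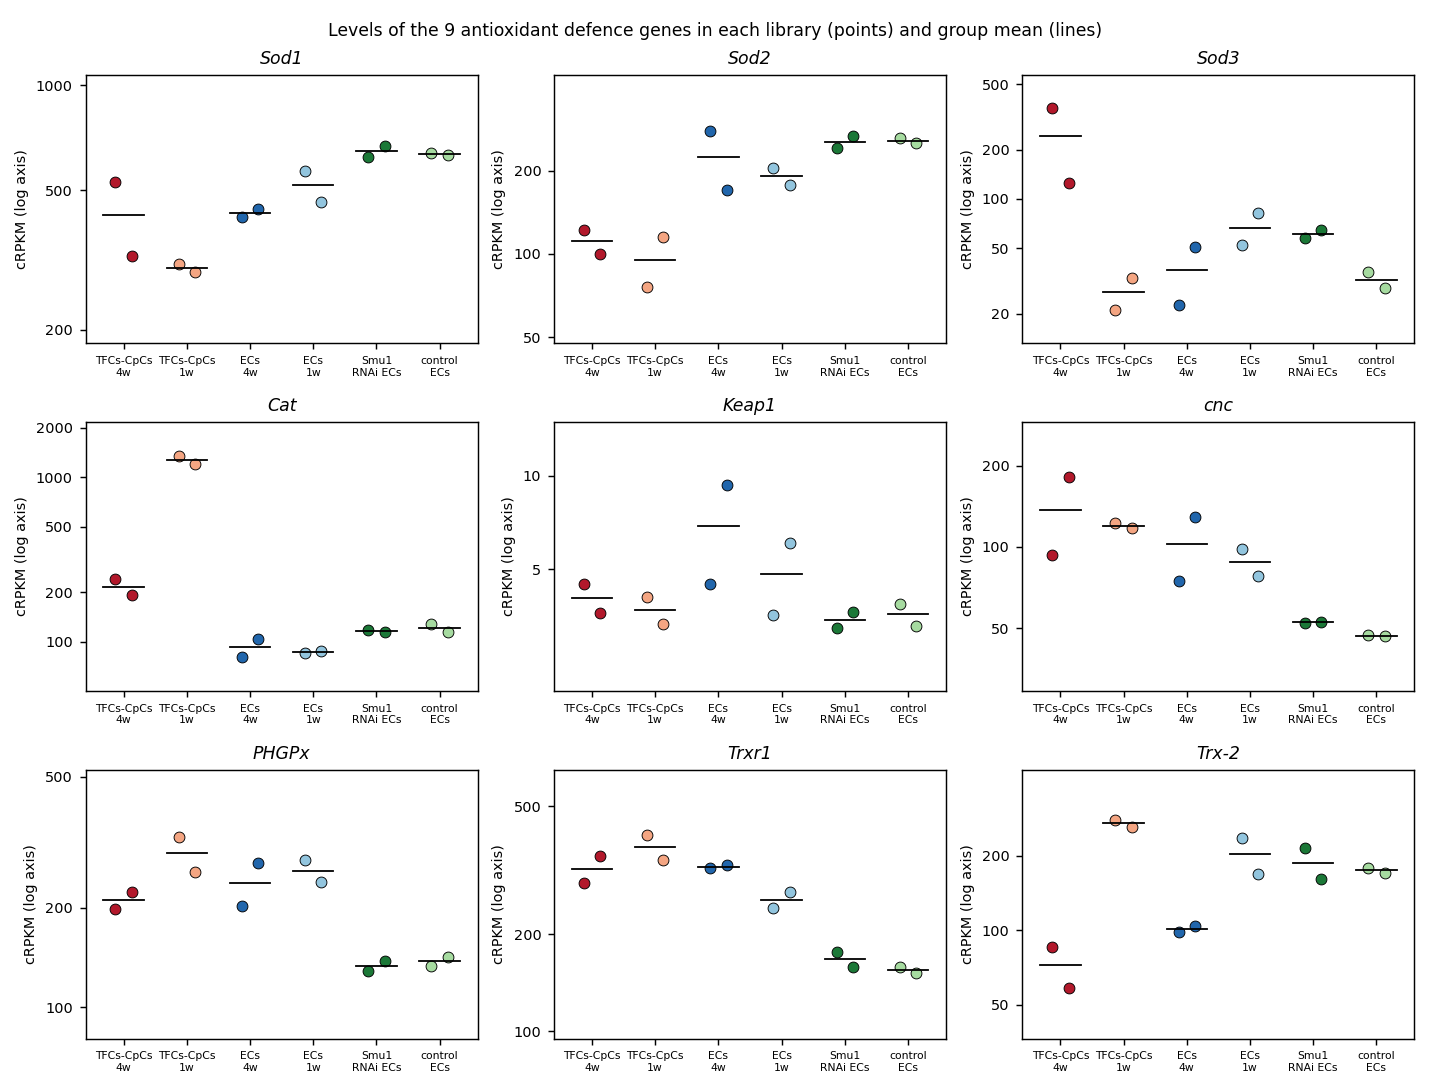
Level of each of the 9 genes in cRPKM (vertical log axis, with its own range in each panel) in the 12 libraries. Each point is a library and each line the mean of a group of 2. The 1w TFCs-CpCs libraries stand highest for Cat (1351 and 1194 cRPKM) and the 4w TFCs-CpCs libraries highest for Sod3 (358 and 125 cRPKM).

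Sod3, the extracellular superoxide dismutase, was the member that rose. It had 358 and 125 cRPKM in 4w TFCs-CpCs, against 21.1 and 33.0 cRPKM in 1w TFCs-CpCs. The ages did not overlap, and the 4w libraries differed from each other more than the 1w libraries did. Sod3 was 7.64-fold higher at 4w, a log2 fold change of 2.93 (SE 0.63, n = 2 per age, edgeR adjusted p = 0.0846). The log2 fold change was 1.99 without the first 4w replicate and 3.56 without the second. In ECs, Sod3 had 22.6 and 51.2 cRPKM at 4w, against 52.2 and 81.7 cRPKM at 1w. The EC ages did not overlap, but the gap between them (51.2 against 52.2 cRPKM) was narrow, and the log2 fold change of -0.81 (SE 0.50, edgeR adjusted p = 0.999) was not called. In Smu1 RNAi ECs Sod3 had 57.5 and 65.0 cRPKM, against 36.0 and 28.7 cRPKM in control ECs. Both RNAi libraries lay above both controls, with a log2 fold change of 0.95 (SE 0.16, edgeR adjusted p = 0.00787) that passed the limit on p but, at 1.94-fold, fell just short of the limit of 2-fold. It passed both limits when the first RNAi replicate (log2 fold change 1.06) or the first control replicate (1.14) was left out, and its adjusted p was 1 when all 12 libraries shared one fit.

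The intracellular superoxide dismutases did not pass the test in any of these comparisons. Sod1 had 529 and 324 cRPKM in 4w TFCs-CpCs, against 309 and 292 cRPKM in 1w TFCs-CpCs, with a log2 fold change of 0.25 (SE 0.40). In ECs it had 419 and 442 cRPKM at 4w, against 570 and 464 cRPKM at 1w, and in the RNAi experiment 623 and 670 cRPKM in Smu1 RNAi ECs, against 640 and 630 cRPKM in control ECs. The ages were separate in both cell groups, narrowly so, while the RNAi and control libraries overlapped. Sod2 had 122 and 99.9 cRPKM in 4w TFCs-CpCs, against 75.8 and 114.95 cRPKM in 1w TFCs-CpCs. It had 279 and 170 cRPKM in 4w ECs, against 205 and 178 cRPKM in 1w ECs. Smu1 RNAi ECs gave 242 and 268 cRPKM, against 262 and 252 cRPKM in control ECs. Sod2 libraries overlapped between the groups in all 3 comparisons, and its log2 fold changes were -0.02 (SE 0.36), 0.31 (SE 0.32) and 0.02 (SE 0.11) for ageing TFCs-CpCs, ageing ECs and Smu1 RNAi.

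Cat showed the largest fall with age of the 9 genes. It had 241 and 192 cRPKM in 4w TFCs-CpCs, against 1351 and 1194 cRPKM in 1w TFCs-CpCs. The replicates of each age lay close together and far from the other age. Cat was 7.06-fold lower at 4w, a log2 fold change of -2.82 (SE 0.41, n = 2 per age, edgeR adjusted p = 0.0263). ECs held Cat at 80.3 and 104 cRPKM at 4w, against 84.8 and 88.2 cRPKM at 1w, so that the ages overlapped (log2 fold change 0.16, SE 0.30, edgeR adjusted p = 0.999). In the RNAi experiment Cat had 117 and 114 cRPKM in Smu1 RNAi ECs, against 128 and 114.9 cRPKM in control ECs, again with overlap (log2 fold change -0.04, SE 0.11). PHGPx, the other peroxidase, had 198 and 224 cRPKM in 4w TFCs-CpCs, against 328 and 257 cRPKM in 1w TFCs-CpCs. The ages did not overlap, yet the log2 fold change of -0.75 (SE 0.35, edgeR adjusted p = 0.357) was not called. PHGPx had 203 and 273 cRPKM in 4w ECs, against 280 and 239 cRPKM in 1w ECs. Smu1 RNAi ECs had 128 and 138 cRPKM, against 134 and 142 cRPKM in control ECs, and both of these pairs of groups overlapped.

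Of the thioredoxin system, Trx-2 fell with age in TFCs-CpCs. Its level was 85.8 and 58.5 cRPKM in 4w TFCs-CpCs, against 279 and 263 cRPKM in 1w TFCs-CpCs. The ages were well apart, and Trx-2 was 4.48-fold lower at 4w (log2 fold change -2.16, SE 0.39, n = 2 per age, edgeR adjusted p = 0.0535). In ECs Trx-2 had 98.1 and 104 cRPKM at 4w, against 237 and 169 cRPKM at 1w. These ages did not overlap either, and the log2 fold change was -0.91 (SE 0.33, unadjusted p = 0.012 and adjusted p = 0.752 in edgeR), which was not called. Smu1 RNAi ECs had 215 and 161 cRPKM of Trx-2, against 179 and 170 cRPKM in control ECs, with overlap. Trxr1 had 289 and 351 cRPKM in 4w TFCs-CpCs, against 407 and 341 cRPKM in 1w TFCs-CpCs, which overlapped (log2 fold change -0.50, SE 0.35, edgeR adjusted p = 0.598). It had 321 and 328 cRPKM in 4w ECs, against 241 and 271 cRPKM in 1w ECs. The 4w ECs lay above the 1w ECs, and the log2 fold change of 0.41 (SE 0.28, edgeR adjusted p = 0.999) was not called. In the RNAi experiment Trxr1 had 176 and 158 cRPKM in Smu1 RNAi ECs, against 158 and 152 cRPKM in control ECs. Of the exon bases of Trxr1, 13.8% are shared with sni on the opposite strand, and reads from that stretch cannot be told apart if the counting did not use strand.

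The regulators Keap1 and cnc were not called in any comparison. The cnc gene had 93.3 and 182 cRPKM in 4w TFCs-CpCs, against 122 and 117 cRPKM in 1w TFCs-CpCs. The 4w libraries fell on either side of the 1w libraries. In ECs cnc had 74.9 and 129 cRPKM at 4w, against 98.7 and 77.9 cRPKM at 1w, with overlap. Smu1 RNAi ECs had 52.4 and 52.7 cRPKM of cnc, against 46.9 and 46.7 cRPKM in control ECs. These libraries did not overlap, but the difference was 1.15-fold (log2 fold change 0.20, SE 0.10, edgeR adjusted p = 0.48). The values of cnc cover all of its 16 annotated transcripts, so that CncC is not separated from the shorter products of the gene. Keap1 was the lowest of the 9 genes, with 4.47 and 3.6 cRPKM in 4w TFCs-CpCs, against 4.05 and 3.33 cRPKM in 1w TFCs-CpCs. It had 4.47 and 9.32 cRPKM in 4w ECs, against 3.54 and 6.09 cRPKM in 1w ECs. Smu1 RNAi ECs had 3.23 and 3.63 cRPKM, against 3.86 and 3.28 cRPKM in control ECs. Keap1 overlapped between the groups in each of these pairs, on 133 to 727 counts per library.

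**Figure D2:**
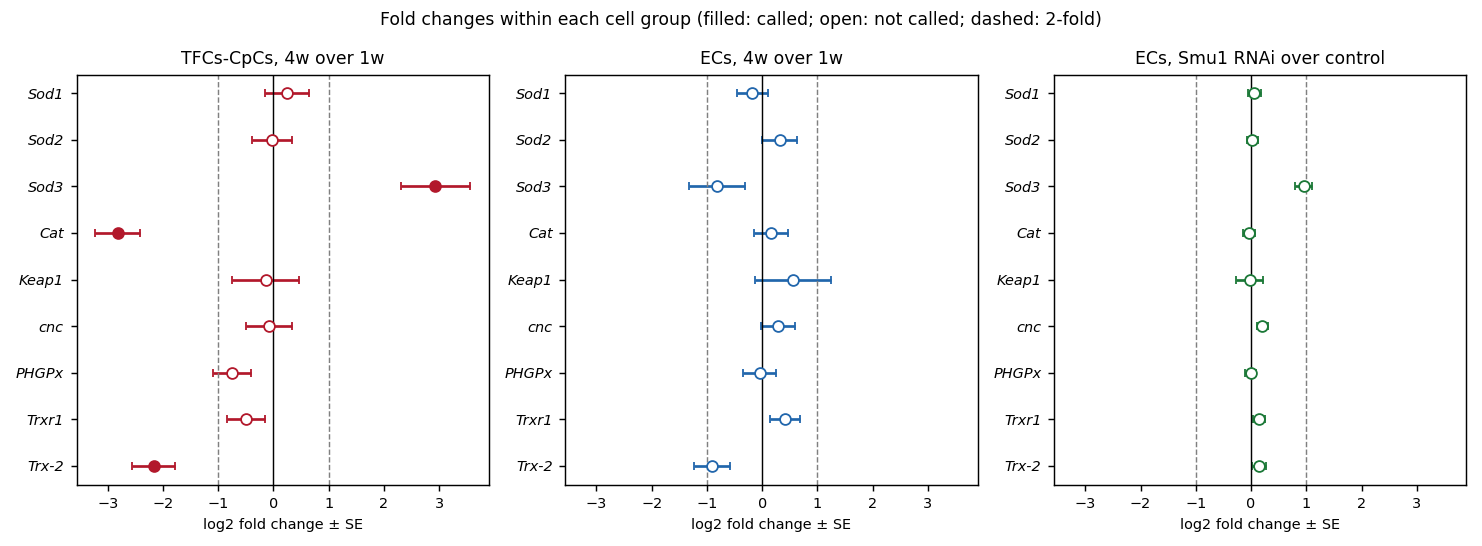
Log2 fold change (horizontal axis, point) with its standard error (bar) of each of the 9 genes in 4w over 1w TFCs-CpCs, 4w over 1w ECs and Smu1 RNAi over control ECs, from edgeR with 2 libraries per group. Filled points were called and dashed lines mark a 2-fold difference; Sod3 (2.93), Cat (-2.82) and Trx-2 (-2.16) are the filled points, all in TFCs-CpCs.

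The ageing effects in TFCs-CpCs and in ECs were set against each other by an interaction term (8 libraries), for which 283 of 11452 genes (2.47%) were called. Of the antioxidant defence genes, 2 of 9 were called: Sod3 and Cat. The ageing effect on Sod3 was higher in TFCs-CpCs than in ECs by 3.76 on the log2 scale (SE 0.83, edgeR adjusted p = 0.058), and that on Cat was lower by 2.97, a difference of -2.97 (SE 0.52, edgeR adjusted p = 0.0237). For Trx-2, lower at 4w in both cell groups, the difference of -1.24 (SE 0.50, edgeR adjusted p = 0.296) was not called. The differences of the other 6 members lay between -0.90 (Trxr1) and 0.44 (Sod1), and none was called. The difference for Sod3 was 2.77 without the first 4w TFCs-CpCs replicate, 4.42 without the second and 4.45 without the second 4w EC replicate. Its call was lost without the first 4w TFCs-CpCs replicate, either 1w TFCs-CpCs replicate, the first 4w EC replicate or either 1w EC replicate, with adjusted p-values of up to 0.22. The call of Cat was lost without the second 4w EC replicate or either 1w EC replicate (adjusted p of up to 0.113).

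In ageing TFCs-CpCs, the levels of Cat and Sod3 moved with markers of other cell types. Of 14 muscle markers tested in TFCs-CpCs, 13 were called lower at 4w and none higher, with a median log2 fold change of -5.67, in the same libraries in which Cat and Trx-2 were lower. In ECs the summed muscle markers were 140 and 152 cRPKM at 4w, against 1295 and 473 cRPKM at 1w, with 5 of 15 called lower; Trx-2 was again lower at 4w there, while Cat had 80.3 and 104 cRPKM at 4w, against 84.8 and 88.2 cRPKM at 1w. Of the 15 late follicle cell markers, 12 had a higher value at 4w in TFCs-CpCs (median log2 fold change 2.24), but none was called. Their summed level was highest in the first 4w replicate, as that of Sod3 was. Within 1w TFCs-CpCs, 4w ECs and 1w ECs, the replicate with the higher sum had the lower Sod3 level. Within Smu1 RNAi ECs and control ECs, the replicate with the higher sum had the higher Sod3 level. In the RNAi experiment the same sum was 8572 and 12031 cRPKM in Smu1 RNAi ECs, against 5029 and 3885 cRPKM in control ECs, and in ageing ECs 15096 and 11917 cRPKM at 4w, against 19349 and 15955 cRPKM at 1w. Single genes carried much of it, since Cp15, a chorion protein gene, made up 7965 of the 12031 cRPKM in the second Smu1 RNAi replicate and 73479 of the 154848 cRPKM in the first 4w TFCs-CpCs replicate. Without Cp15, a choice made after its values were seen, the sum was 7587 and 4066 cRPKM in Smu1 RNAi ECs, against 4026 and 3649 cRPKM in control ECs, and 81369 and 36764 cRPKM in 4w TFCs-CpCs, against 14735 and 4306 cRPKM in 1w TFCs-CpCs. The second Smu1 RNAi replicate was then close to the first control replicate, and below the first Smu1 RNAi replicate, whose Sod3 level was the lower. Yp2 and Yp3 were lower in the second Smu1 RNAi replicate (207 and 130 cRPKM) than in either control. The groups of this sum did not overlap with or without Cp15 in TFCs-CpCs and in the RNAi experiment, and Sod3 differed in the direction of the sum in all 3 comparisons. Hemocyte markers summed to 55.6 and 9.35 cRPKM in 4w TFCs-CpCs, against 356 and 391 cRPKM in 1w TFCs-CpCs, where Pxn and Ppn made up nearly all of it, while the defining markers Hml, NimC1 and He were at 0.03 cRPKM or less in these 4 libraries. The part of any of these markers in the levels of Cat, Trx-2 and Sod3 was not tested.

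The genes whose levels were most like those of the 3 called members over the 12 libraries were found by the Pearson correlation of log2(cRPKM + 1) over 6006 genes averaging 10 cRPKM or more. These correlations are descriptions over libraries that share groups, sorts and depth. For Cat they were SERCA, the calcium pump of the sarcoplasmic and endoplasmic reticulum (r = 0.991), CG17032 (r = 0.99) and Ktl (r = 0.986). SERCA had 104 and 114.6 cRPKM in 4w TFCs-CpCs, against 404 and 408 cRPKM in 1w TFCs-CpCs, and 38.5 to 62.9 cRPKM in the 8 EC libraries. For Sod3 the most alike genes were Vm32E, a vitelline membrane gene of the eggshell that is also on the late follicle cell list (r = 0.925), Esp (r = 0.917) and Hnf4 (r = 0.913). Vm32E had 7487 and 1722 cRPKM in 4w TFCs-CpCs, against 6.18 and 228 cRPKM in 1w TFCs-CpCs. For Trx-2 they were CG7115 (r = 0.937), mthl4 (r = 0.897) and the gene FBgn0058196, which has no symbol in the name table used (r = 0.878). CG7115 had 9.85 and 8.41 cRPKM in 4w TFCs-CpCs, against 35.3 and 28.1 cRPKM in 1w TFCs-CpCs.

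**Figure D3:**
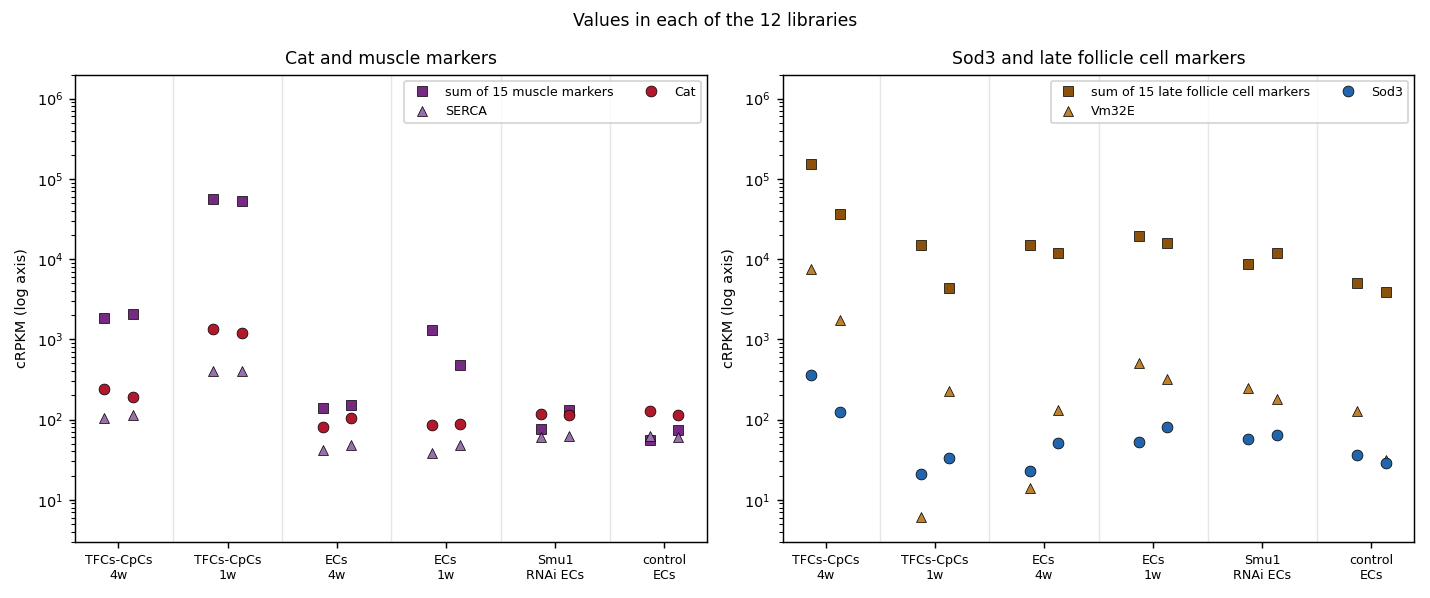
Cat beside SERCA and the sum of 15 muscle markers (left), and Sod3 beside Vm32E and the sum of 15 late follicle cell markers (right), in cRPKM on a log axis; each symbol is 1 library. Cat and the muscle sum are both highest in 1w TFCs-CpCs (1351 and 1194 cRPKM for Cat, 55984 and 53205 cRPKM for the sum), and Sod3 and the late follicle cell sum are both highest in the first 4w TFCs-CpCs replicate (358 and 154848 cRPKM).

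Beyond the 9 members, 79 genes of 9 related lists had values, and few of them changed within a cell group. In ageing TFCs-CpCs, 64 were tested, of which 1 was called higher and 2 lower (4.69%, against 5.18% of all genes). The median log2 fold change of the 64 was 0.03, and that of all genes tested 0.04. Among the peroxiredoxins and sulfiredoxin, 1 of 7 was called: Jafrac1, a cytosolic peroxiredoxin that reduces hydrogen peroxide with electrons from thioredoxin. Jafrac1 had 368 and 305 cRPKM in 4w TFCs-CpCs, against 2570 and 2023 cRPKM in 1w TFCs-CpCs, and was 8.21-fold lower (log2 fold change -3.04, SE 0.42, edgeR adjusted p = 0.022). Its ages were as far apart as those of Cat. Among superoxide dismutase partners and metal storage genes, 2 of 7 tested were called. Tsf2, a transferrin family member, had 30.7 and 30.1 cRPKM in 4w TFCs-CpCs, against 4.44 and 4.37 cRPKM in 1w TFCs-CpCs (log2 fold change 2.52, SE 0.36, edgeR adjusted p = 0.0265). MTF-1, the metal-responsive transcription factor, had 14.96 and 12.7 cRPKM in 4w TFCs-CpCs, against 33.9 and 42.3 cRPKM in 1w TFCs-CpCs (log2 fold change -1.71, SE 0.34, edgeR adjusted p = 0.0672). Like those of the members, these 3 calls were lost without either 1w replicate, with adjusted p-values of 0.112 to 0.312. None was called in the other lists: glutathione synthesis (5 tested), NADPH supply (6), partners and reporter targets of CncC (9), methionine sulfoxide reductases and DJ-1 (4), other thioredoxins, glutaredoxins and reductases (4), peroxisomal genes (17), and NADPH oxidases and other peroxide sources (5).

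In ageing ECs none of the 69 list genes tested was called, with a median log2 fold change of 0.12 (-0.03 over all genes tested). In Smu1 RNAi over control ECs none of 70 was called either, with a median of 0.04 (-0.002 over all genes tested). Of the 73 list genes tested for a difference between the ageing effects, 2 were called: Jafrac1, with a difference of -3.21 (SE 0.52, edgeR adjusted p = 0.0191), and Tsf2, with a difference of 4.05 (SE 0.68, edgeR adjusted p = 0.0212). Jafrac1 had 593 and 629 cRPKM in 4w ECs, against 557 and 578 cRPKM in 1w ECs, and Tsf2 had 4.11 and 2.78 cRPKM in 4w ECs, against 8.44 and 12.1 cRPKM in 1w ECs. Both of these calls held without any single library.

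TFCs-CpCs and ECs were also set against each other at each age. These libraries differ in driver, reporter, depth and the number of sorted cells, which the study gives as far lower for TFCs-CpCs. Cell type cannot be told apart from these. At 1w, 2737 of 11452 genes (23.9%) were called, and 2 of 9 members, Cat and Trxr1, both higher in TFCs-CpCs. At 4w, 1247 genes (10.9%) were called, and 2 of 9 members, Sod3 and Cat, again both higher in TFCs-CpCs. Cat was 21-fold higher in TFCs-CpCs at 1w (1351 and 1194 cRPKM, against 84.8 and 88.2 cRPKM in 1w ECs), with a log2 fold change of 4.39 (SE 0.41, edgeR adjusted p = 7.62e-05). At 4w it was 2.68-fold higher in TFCs-CpCs (241 and 192 cRPKM, against 80.3 and 104 cRPKM in 4w ECs), with a log2 fold change of 1.42 (SE 0.37, edgeR adjusted p = 0.042). These folds rest on counts scaled between libraries by TMM in edgeR, not on cRPKM. The ratios of the mean cRPKM of Cat were 14.7 at 1w and 2.34 at 4w. Cat was thus higher in TFCs-CpCs at both ages, by a smaller factor at 4w. The call at 4w was lost without either 4w EC replicate (adjusted p = 0.291 and 0.167 without the first and the second).

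Sod3 was 7.58-fold higher in TFCs-CpCs at 4w (358 and 125 cRPKM, against 22.6 and 51.2 cRPKM in 4w ECs; log2 fold change 2.92, SE 0.61, edgeR adjusted p = 0.0164), a call lost without the first 4w EC replicate (edgeR adjusted p = 0.151). The log2 fold change was 1.90 without the first 4w TFCs-CpCs replicate and 3.597 without the second 4w EC replicate. It was 3.69 with the replicate number as a block, a contrast that here took the level fitted for the first replicates only. At 1w the values ran the other way, with 21.1 and 33.0 cRPKM in TFCs-CpCs, against 52.2 and 81.7 cRPKM in ECs, but the log2 fold change of -0.84 (SE 0.57, edgeR adjusted p = 0.318) was not called. Trxr1 was 2.08-fold higher in TFCs-CpCs at 1w (407 and 341 cRPKM, against 241 and 271 cRPKM in ECs). Its log2 fold change of 1.06 (SE 0.34, edgeR adjusted p = 0.0612) was close to the limit of 2-fold, and it was called under 3 of 15 alternatives. The ratio of its mean cRPKM was 1.46, under that limit. Trx-2 at 1w passed the limit on p (edgeR adjusted p = 0.0918) but not that of 2-fold (1.93-fold higher in TFCs-CpCs), and at 4w its log2 fold change was -0.29 (SE 0.35). Sod2 had lower values in TFCs-CpCs at both ages, with log2 fold changes of -0.83 (SE 0.38) at 4w and -0.50 (SE 0.37) at 1w that were not called.

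**Figure D4:**
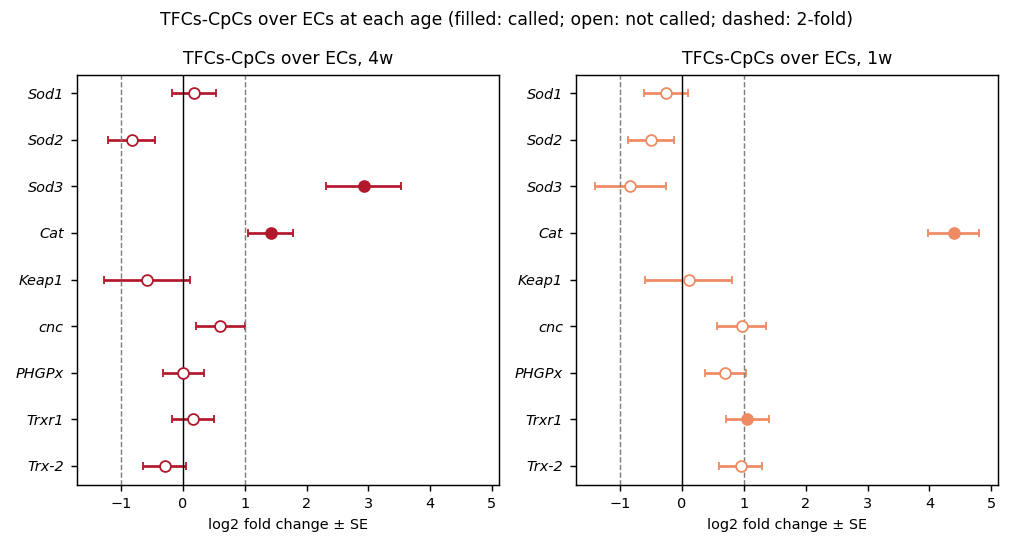
Log2 fold change (horizontal axis, point) with its standard error (bar) of each of the 9 genes in TFCs-CpCs over ECs at 4w (left) and 1w (right), from one edgeR fit of 8 ageing libraries. Filled points were called and dashed lines mark a 2-fold difference; Cat is filled at both ages (1.42 at 4w and 4.39 at 1w), Sod3 only at 4w (2.92) and Trxr1 only at 1w (1.06).

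More of the list genes were called between the cell groups than within them: 12 of 73 (16.4%) at 4w and 19 of 73 (26%) at 1w, beside 10.9% and 23.9% of all genes. Of 5 glutathione synthesis genes tested, 2 were called lower in TFCs-CpCs at 4w and 3 at 1w, and none higher. Gclm, the modifier subunit of the rate-limiting ligase, had 100 and 108 cRPKM in 4w TFCs-CpCs, against 560 and 463 cRPKM in 4w ECs, and 44.3 and 38.9 cRPKM in 1w TFCs-CpCs, against 322 and 359 cRPKM in 1w ECs (log2 fold change -2.11 at 4w and -2.52 at 1w, edgeR adjusted p = 0.00403 and 0.000693). Gss2, a glutathione synthase that may share reads with its neighbouring copy Gss1, was lower at both ages (-3.79 and -3.08), and Gclc, the catalytic subunit of the ligase, at 1w (-1.66). The call of Gclc held under 12 of 15 alternatives, and those of Gss2 under 10 of 15 at 4w and 7 of 15 at 1w. GstD1, a glutathione transferase often used as a reporter target of CncC, was higher in TFCs-CpCs, with 2371 and 3125 cRPKM at 4w, against 708 and 556 cRPKM in 4w ECs, and 2931 and 2640 cRPKM at 1w, against 527 and 718 cRPKM in 1w ECs (edgeR adjusted p = 0.00693 and 0.00151). The small Maf partner of CncC, maf-S, was lower in TFCs-CpCs at 1w (log2 fold change -1.72), Cul3, the ubiquitin ligase scaffold that works with Keap1, was higher at 1w (1.43), and foxo, a stress-responsive transcription factor, was lower at 4w (-1.25).

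Among metal-binding proteins, MtnA, a metallothionein, had 344 and 41.7 cRPKM in 4w TFCs-CpCs, against 2146 and 1741 cRPKM in 4w ECs, and 30.5 and 11.6 cRPKM in 1w TFCs-CpCs, against 3835 and 2329 cRPKM in 1w ECs. MtnA was called lower at both ages (log2 fold change -3.11 and -6.63, edgeR adjusted p = 0.0447 and 0.00104), as was Tsf1, a secreted iron carrier (-4.91 and -5.41). Tsf2 was higher in TFCs-CpCs at 4w (3.32) and MTF-1 at 1w (1.57). Of the genes that supply NADPH, the malic enzyme Men was higher in TFCs-CpCs at both ages (2.59 at 4w and 4.25 at 1w), Pgd (1.48) and Men-b (1.33) were higher at 4w, and Taldo, of the pentose phosphate pathway, was lower at 1w (-1.27). Among peroxiredoxins at 1w, Jafrac1 (2.53) and sulfiredoxin, Srx (1.68), were higher and mitochondrial Prx3 (-1.39) was lower. The peroxisomal oxidase Acox3 was higher at both ages (1.96 at 4w and 3.27 at 1w), Mfe2 was higher at 1w (1.00), a call lost under each of the 15 alternatives, and Acox57D-p, with 0 and 0.12 cRPKM in 4w TFCs-CpCs, against 7.47 and 1.94 cRPKM in 4w ECs, was called lower at 4w. At 1w, Irc, an immune-regulated catalase (-4.22), and Nox, the NADPH oxidase (-4.05), were lower and Pxn, an extracellular matrix peroxidase (6.28) that is also a hemocyte marker, was higher in TFCs-CpCs. The calls held without any single library for Jafrac1, Gclm, Tsf1, MtnA, Men, maf-S, GstD1 and Acox3 at 1w and for Gclm, Tsf1 and Tsf2 at 4w, and each of the other list genes lost its call without at least 1 library. The ECs of the RNAi experiment, which were not in this fit, were set beside these values without a test. They lay on the same side of the TFCs-CpCs as the ageing ECs for 13 of 14 calls (members and list genes) at 4w and 17 of 21 at 1w. The TFCs-CpCs values used were those that gave the calls, so a shared side was in part built in. The share over all called genes was not counted. The exceptions were Tsf1 at both ages (2.52 and 6.14 cRPKM in 4w TFCs-CpCs and 2.83 and 2.27 cRPKM in 1w TFCs-CpCs, against 134 to 179 cRPKM in the ageing ECs but 0.35 to 3.63 cRPKM in the RNAi experiment's ECs) and, at 1w, Gclc (22.0 and 31.1 cRPKM in TFCs-CpCs, against 19.6 to 32.7 cRPKM in the RNAi experiment's ECs), Cul3 and Mfe2.

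Per length, the 9 genes ranged from a median of 3.75 cRPKM for Keap1 to 497 cRPKM for Sod1 over the 12 libraries. Sod3 and Cat varied most, with highest and lowest libraries 17 and 16.8-fold apart, while the other 7 genes varied by 2.29 to 4.76-fold. By group mean, Cat ran from 1273 ± 111 cRPKM (SD, n = 2) in 1w TFCs-CpCs through 216 ± 35 cRPKM in 4w TFCs-CpCs and 122 ± 9.5 cRPKM in control ECs to 86.5 ± 2.39 cRPKM in 1w ECs. Neighbours in that order overlapped between control and Smu1 RNAi ECs and between 4w and 1w ECs. Sod3 ran from 242 ± 165 cRPKM in 4w TFCs-CpCs, above 66.9 ± 20.9 cRPKM in 1w ECs and 61.2 ± 5.3 cRPKM in Smu1 RNAi ECs, to 27.0 ± 8.4 cRPKM in 1w TFCs-CpCs. Of its neighbours, 1w ECs and Smu1 RNAi ECs overlapped, as did 4w ECs, control ECs and 1w TFCs-CpCs in turn. Trx-2 was highest in 1w TFCs-CpCs (271 ± 11.5 cRPKM) and lowest in 4w TFCs-CpCs (72.2 ± 19.3 cRPKM), with 4w ECs next above at 101 ± 4.19 cRPKM, and the 1w, Smu1 RNAi and control ECs overlapped in turn between them. Sod1 was highest in Smu1 RNAi ECs (646 ± 33.1 cRPKM) and lowest in 1w TFCs-CpCs (301 ± 11.4 cRPKM), and Sod2 highest in control ECs (257 ± 7.57 cRPKM) and lowest in 1w TFCs-CpCs (95.4 ± 27.7 cRPKM). PHGPx, Trxr1 and cnc were each lowest in the RNAi experiment's ECs, at 133 ± 6.82 cRPKM (PHGPx, Smu1 RNAi), 155 ± 4.53 cRPKM (Trxr1, control) and 46.8 ± 0.17 cRPKM (cnc, control), and highest in TFCs-CpCs, at 293 ± 50.3 cRPKM (PHGPx, 1w), 374 ± 46.5 cRPKM (Trxr1, 1w) and 138 ± 62.6 cRPKM (cnc, 4w). Keap1 ran from 3.43 ± 0.28 cRPKM in Smu1 RNAi ECs to 6.89 ± 3.43 cRPKM in 4w ECs, and every pair of neighbours overlapped. The RNAi experiment was not tested against the ageing ECs, since the genotypes differed.

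In the BDGP6 annotation of the dm6 build, the 9 genes lie on 5 chromosome arms. Sod1 is on 3L from 11112281 to 11113740 (minus strand), Cat on 3L from 18822604 to 18828188 (plus strand) and PHGPx on 3L from 3326265 to 3328626 (plus strand). Sod2 is on 2R from 16772785 to 16773915 and Sod3 on 2R from 11380347 to 11384114, both on the minus strand. Keap1 is on 3R from 17073942 to 17079945 and cnc on 3R from 23185580 to 23226711, both on the minus strand. Trxr1 is on X from 8242528 to 8248033 and Trx-2 on 2L from 9613166 to 9616404, both on the plus strand. All are protein-coding, and apart from Trxr1 and cnc (0.686% of exon bases, opposite strand) none shared exon bases with another gene.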

How the data were processed

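RNA of FACS-sorted cells was amplified by PCR (pico profiling) and sequenced as strand-specific libraries. The authors ran vast-tools on dm6. Their deposited values per gene are a raw read count and a corrected RPKM (cRPKM), normalized to mappable length and mapped reads. Whether counting used strand is not given in the sources used here. Of 14489 genes listed, 763 had no values and 13506 of the others matched a gene symbol.

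Counts were tested with edgeR 4.0.16 in R 4.3.3 (TMM, quasi-likelihood) on genes reaching 10 counts in 2 or more libraries of the fit: pairwise comparisons on their own 4 libraries, the interaction and the cell-group contrasts on the 8 ageing libraries. Adjustment (Benjamini-Hochberg) was over all genes tested, and the SE is the absolute log2 fold change divided by the square root of F. The 9 members and all lists were chosen with earlier results of these data known. Named are all members, list genes called in a comparison (at most 6 per list) and, for each member called in a pairwise comparison, the 3 genes most alike. Without values were Prx5, Duox, wupA, vas, nos, FASN3 and para, and PHGPx was left out of the list of other thioredoxins, where its synonym stood. Alternatives were DESeq2 1.42.0, median-of-ratios size factors, no count filter, a stricter adjusted p (0.05), a joint fit of the 12 libraries, the replicate block, limma 3.58.1 with 1 or 0.1 added to the cRPKM before taking log2, and each library left out in turn (a lone library being assumed to vary like the other groups). Between the cell groups, the replicate block compared the levels fitted for the first replicates only. Python 3.11.15, pandas 2.3.3, numpy 2.4.6 and matplotlib 3.10.9 were used for the other steps.

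Per the study, each replicate's young and old females shared a batch. Equal numbers were taken to pair the EC ages, which is an assumption. The TFCs-CpCs are numbered otherwise in the supplementary tables, which leaves their pairs unknown, and RNAi numbers are not tied to vials. Deviations of same-numbered libraries from their group means correlated at -0.041 (TFCs-CpCs), -0.035 (ECs) and 0.218 (RNAi experiment). Precision is that of 2 libraries per group, and amplified reads are not independent molecules.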

Additional observations from a re-analysis of the deposited data

Results flagged for a closer look

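Sod3 and Cat stood out because the effect of age on them differed between TFCs-CpCs and ECs in the interaction test, by 3.76 (Sod3) and -2.97 (Cat) on the log2 scale, TFCs-CpCs minus ECs. The same test picked out Jafrac1 (-3.21) and Tsf2 (4.05) among the related genes.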

How the results depend on the processing

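Among the members' fold changes, 604 of 702 values under an alternative kept direction and side of the limits, 30 lost and 6 gained a call, and 62 changed sign, none of them in a comparison in which that member was called. Among the named list genes 435 of 528 kept both and 93 lost a call. The main limit is 2 libraries per group. Depth did not leave a member under the count filter. Where no cause is given, the cause was not tested.

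For ageing TFCs-CpCs, 3 members were called under each alternative but an adjusted p under 0.05 (1) and leaving out a library (0 to 3). Genes called numbered 1423 with DESeq2, 1206 with no filter, 287 at an adjusted p under 0.05, 1665 with 12 libraries in one fit and 172 to 1246 without a library. For ageing ECs they numbered 113 (DESeq2), 63 (no filter), 40 (12 libraries), 7 (limma, either pseudocount) and 1 to 32 without a library. With Smu1 RNAi, 1 gene was called with 12 libraries, and leaving out a library gave 0 to 1 members. For the difference of the ageing effects, 1 member was called at an adjusted p under 0.05 and 0 to 2 without a library, and 908 (DESeq2), 566 (no filter), 130 (adjusted p under 0.05), 931 (12 libraries), 119 (limma, 0.1 added) and 69 to 489 genes (without a library). Between the cell groups at 1w, 1 member was called with DESeq2, with median-of-ratios size factors and at an adjusted p under 0.05, 4 with no filter, and 1 to 2 without a library; genes numbered 1760 (adjusted p under 0.05), 4761 (12 libraries) and 1132 to 3285 (without a library). At 4w 0 to 2 members were called without a library, and 2211 (DESeq2), 783 (adjusted p under 0.05), 2608 (12 libraries) and 440 to 1539 genes (without a library).

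With the replicate block, 650 genes were called in ageing TFCs-CpCs, 18 in ageing ECs, 259 with Smu1 RNAi, 1453 between the cell groups at 1w (1 member) and 624 at 4w. Between the cell groups, this contrast took the level fitted for the first replicates, not the average over replicates. The changes between the cell groups that follow therefore do not show whether pairing matters. Trxr1 lost its call at 1w (adjusted p = 0.173), Sod3 reversed at 1w (0.0767) and Keap1 at 4w (0.208), and the block changed no other member's call. Of the list genes, Srx, Gss2, MTF-1, Taldo, Cul3, Mfe2, Nox and Irc lost their calls at 1w, and Gss2, Pgd, foxo and Acox3 at 4w.

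The median log2 fold change of all genes was 0.04 with TMM and 0.218 on the cRPKM scale in ageing TFCs-CpCs, 0.128 and 0.291 for the difference of the ageing effects, and -0.231 and -0.483 between the cell groups at 1w. Calls split into 116 higher and 363 lower in ageing TFCs-CpCs (273 and 443 with limma and 1 added, 257 and 415 with 0.1 added, 649 and 774 with DESeq2, 522 and 684 with no filter, 37 and 250 at an adjusted p under 0.05), and the balance turned with 12 libraries in one fit (860 and 805). For the difference of the ageing effects they split into 110 and 173 (489 and 419 with DESeq2, which turns the balance). Between the cell groups they split into 1458 and 1279 at 1w (limma 999 and 2098, and 967 and 2436; 1224 and 1524 with size factors; 1404 and 2362 with DESeq2; 1827 and 2934 with 12 libraries) and into 805 and 442 at 4w (limma 695 and 796, and 685 and 831; 1080 and 1131 with DESeq2; 1306 and 1302 with 12 libraries).

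Log2 fold changes not called in their comparison reversed as follows, with limma's values for 1 added and then 0.1 added. In ageing TFCs-CpCs these were Sod2 (0.014 with DESeq2 and with size factors, 0.0079 with 12 libraries, limma 0.2411 and 0.2435), Keap1 (limma 0.1013 and 0.1242) and cnc (limma 0.1211 and 0.1214). With Smu1 RNAi they were Sod2 (limma -0.0127 for both), Keap1 (0.011 with 12 libraries) and PHGPx (0.0119 with no filter, 0.0273 with 12 libraries). For the difference of the ageing effects it was Sod2 (limma 0.05 and 0.0517). Between the cell groups they were Keap1 at 1w (-0.0655 with DESeq2, -0.0652 with size factors, limma -0.2789 and -0.3313) and, at 4w, Sod1 (limma -0.057 and -0.0572), PHGPx (-0.0984 with DESeq2, -0.0983 with size factors, limma -0.1611 and -0.1617) and Trxr1 (limma -0.0273 and -0.0274).

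Leaving out a library reversed, in ageing TFCs-CpCs, Sod1 (-0.1191 to 0.6408), Sod2 (-0.2461 to 0.2227), Keap1 (-0.3344 to 0.1) and cnc (-0.534 to 0.3747). In ageing ECs it reversed Sod2 (-0.1071 to 0.6155), Cat (-0.0452 to 0.3214), Keap1 (-0.0664 to 1.1202), cnc (-0.1605 to 0.6159) and PHGPx (-0.281 to 0.1357). With Smu1 RNAi it reversed Sod1 (-0.0104 to 0.1338), Sod2 (-0.0672 to 0.1154), Cat (-0.1429 to 0.0604), Keap1 (-0.1641 to 0.1133), PHGPx (-0.081 to 0.063) and Trx-2 (-0.065 to 0.3167). For the difference of the ageing effects it reversed Sod2 (-0.6436 to 0.1118) and cnc (-0.7955 to 0.0778), at 1w Keap1 (-0.3467 to 0.6562), and at 4w Sod1 (-0.275 to 0.4956), Keap1 (-1.0146 to 0.0146) and PHGPx (-0.1873 to 0.2097).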
